A study of Homo sapiens with 8 samples.

Results

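The 7 genes described here build or bind the extracellular matrix, join cells to one another, or modify collagen: LAMA1, LAMA3, EMILIN2, FRAS1, CDH2, P4HA1 and ANTXR2. They were chosen by the regions themselves: each carries at least 1 region listed in a study of RNA precipitated with the translation initiation factor eIF4G2. The presence and number of their regions are therefore a description, with no test. They are 7 of 861 genes with a region inside or across them in either of 2 lists, beside 3.13% of all RefSeq protein-coding genes with such a region, and they hold 24 of the region entries: 4 of 1224 regions of the control list and 20 of 1986 regions of the overexpression list.

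The regions come from RIP-seq, in which a protein is precipitated with its RNA and the RNA is sequenced, done with an antibody against eIF4G2. It was done in IHCF cells, fibroblasts of the human heart that were immortalized. Lentivirus brought in either full-length eIF4G2 (overexpression) or a scramble vector (control), and both conditions were precipitated with the eIF4G2 antibody. Per the labels, total RNA and precipitated RNA were sequenced from 2 biological replicates of each condition after poly(A) enrichment, 8 libraries in 4 groups, none of them a precipitation with an unrelated antibody. The authors deposited 1 list of regions per condition. Positions and widths are the authors' own, and the lists hold neither values for single replicates nor any count, score or p-value. No difference between the lists could be tested, and the depth behind a region is unknown. The condition of each list rests on the name of its table, which also holds the name MOV10, another RNA-binding protein that no label mentions. The labels name eIF4G2 as the precipitated protein, and the lists themselves do not show which protein their regions come from.

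Laminins are trimers of an alpha, a beta and a gamma chain that polymerize into the basement membrane, the thin matrix sheet under epithelia and around muscle, fat and nerve cells. Cadherins bind the same cadherin on a neighbouring cell through calcium-dependent repeats. Collagen chains need hydroxylated prolines to form a stable triple helix, and activated cardiac fibroblasts are known for secreting collagen into scar. eIF4G2 is a relative of the scaffold eIF4G1 that binds eIF4A and eIF3 but not the cap-binding protein eIF4E.

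LAMA1, LAMA3, EMILIN2 and CDH2 were listed under overexpression and absent from the control list, with 19 regions and 10085 bp in all. FRAS1 and ANTXR2 were listed in control cells and absent under overexpression, with 2 regions of 1290 bp and 1 region of 2915 bp. P4HA1 had 1 region in each list, at the same place. This split followed the chromosomes. LAMA1, LAMA3, EMILIN2 and CDH2 lie on chromosome 18, where 60.0% of the 270 RefSeq protein-coding genes were listed under overexpression only, and 0 were listed in control cells. FRAS1 and ANTXR2 lie on chromosome 4, where 19.1% of coding genes were in the control list only, 3.25% in the overexpression list only and 24.0% in both. P4HA1 lies on chromosome 10, where 1.91% of coding genes were in both lists. The absence of LAMA1, LAMA3, EMILIN2 and CDH2 from the control list cannot be told apart from the absence of the whole chromosome. All 7 genes are longer than 50 kb. Of coding genes of at least 50 kb, the overexpression list alone held 62.3% on chromosome 18, the control list alone held 21.4% on chromosome 4, and both lists shared 0.984% on chromosome 10.

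**Figure D1:**
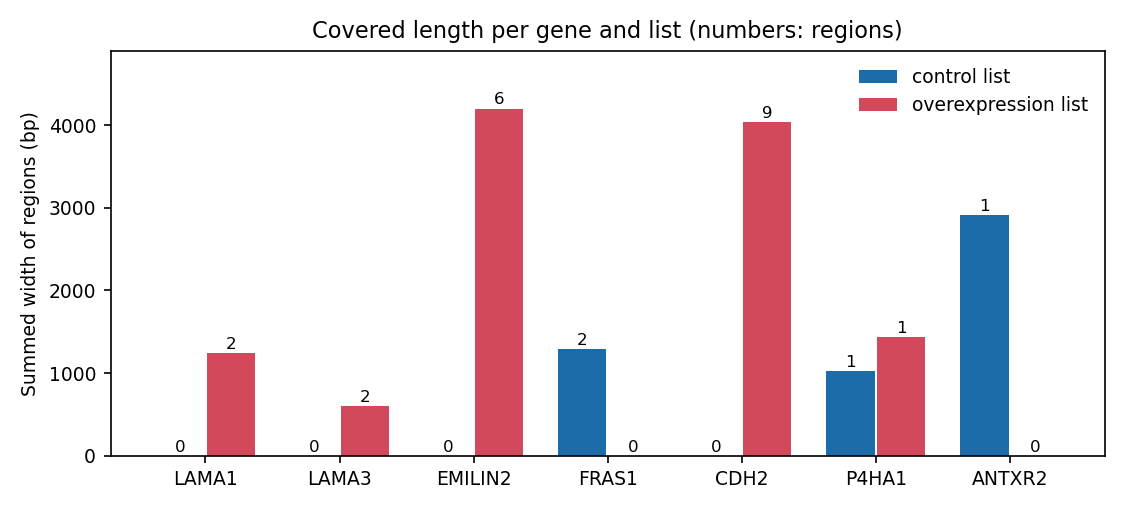
Summed width of the listed regions of each gene in bp (vertical axis), for the control list (blue) and the overexpression list (red), with the number of regions above each bar; a list is 1 value, so there are no error bars. EMILIN2 (4200 bp) and CDH2 (4040 bp) are the tallest bars, and P4HA1 is the gene with a bar in both lists (1025 and 1435 bp).

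Region edges fell on fixed grids along the genome. Every edge lay on a multiple of 200 or 215 bp on chromosome 4 (1185 control and 491 overexpression regions), of 205 bp on chromosome 10 (29 and 121 regions), and of 205 or 215 bp on chromosome 18 (1339 overexpression regions). Edges given below are no finer than such a step. The smallest region of the overexpression list on chromosome 4 measured 400 bp, against 200 bp in the control list, so on chromosome 4 the overexpression list held no region of 1 step while 260 control regions (21.9%) were 1 step wide. The regions of FRAS1 and ANTXR2 were wider than 400 bp.

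LAMA1 (ENSG00000101680) encodes the laminin alpha-1 chain, a chain of embryonic and some adult basement membranes. On GRCh38 it occupies 6941742 to 7117797 of chromosome 18, on the minus strand, a span of 176 kb. Its 2 overexpression regions, chr18:6941711-6942735 (1025 bp) and chr18:6943211-6943425 (215 bp), lie 475 bp apart at the 3′ end of the gene. The first ran across the 3′ end of all 4 transcripts of LAMA1 in the table and 31 bp past the RefSeq end, and the second lay inside all 4. Both lay over no other gene. The rest of the gene, from the 5′ end to 99% of its length, held no region.

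LAMA3 (ENSG00000053747) encodes the laminin alpha-3 chain, a part of the laminin that anchors the epidermis. It spans 23689453 to 23955066 of chromosome 18 on the plus strand (266 kb). Its 2 overexpression regions, chr18:23765671-23766060 (390 bp) and chr18:23766316-23766530 (215 bp), lay 255 bp apart at 28.8% and 29.0% of the gene, 189 kb from its 3′ end. Neither touched a transcript end, while 1 of the 2 LAMA1 regions did. They fell inside all 3 LAMA3 transcripts in the table, 106 kb before the LAMA3 start site that the RefSeq promoter table lists, at 23873020. The table of regions holds only transcripts paired with a region, and none of the 3 starts at that site. It gives no exons, so whether the regions lie in an exon or an intron is not known here. At 605 bp in all, LAMA3 had the shortest covered length of the 7 genes.

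EMILIN2 (ENSG00000132205) encodes elastin microfibril interfacer 2, a secreted glycoprotein of elastic matrix. It spans 2846232 to 2916003 of chromosome 18 on the plus strand (69.8 kb) and is the shortest gene of the 7. Its 6 overexpression regions formed 2 groups within the last part of the gene. The first group of 3 (615, 300 and 430 bp) ran from 2905466 to 2907445, at 85.3% to 87.4% of the gene. The second group of 3 (1290, 205 and 1360 bp) ran from 2913251 to 2916330, at 97.0% to 99.5%, after a gap of 5.8 kb. The last region crossed the 3′ end and reached 327 bp beyond it, and the region at chr18:2913251-2914540 crossed the end of a shorter transcript. The region at chr18:2906286-2906585 crossed the start of another short transcript. None of the 6 lay over a second gene, and their summed width equalled 6.02% of the gene's length, or 5.55% without the bases past its end. Either value was the highest among the 7.

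FRAS1 (ENSG00000138759) encodes a large protein of the basement membrane that holds epithelium to the tissue beneath, and which is lost in Fraser syndrome. It spans 78057323 to 78544269 of chromosome 4 on the plus strand (487 kb) and is the longest gene of the 7. Its 2 control regions, chr4:78180401-78181000 (600 bp) and chr4:78181311-78182000 (690 bp), lay 310 bp apart at 25.3% and 25.5% of the gene, 363 kb from its 3′ end. Both also lay over SERBP1P5, a pseudogene on the minus strand at 78180866 to 78182046. The pseudogene made up 135 bp (22.5%) of the first region and all 690 bp (100%) of the second. Regions have no strand in the table, so they cannot be given to FRAS1 alone, and without them FRAS1 had 0 regions. SERBP1, the gene this pseudogene is named after, lies on chromosome 1 and had no region in either list. Of the 1224 control regions, 1185 lay on chromosome 4 and 29 on chromosome 10. Of the 1986 overexpression regions, 491, 121 and 1339 lay on chromosomes 4, 10 and 18. The absence of a gene of chromosome 1 therefore says little about SERBP1. How reads that match several copies were assigned is not known here, so the FRAS1 regions are uncertain. The nearest overexpression region lay 273601 bp away.

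CDH2 (ENSG00000170558) encodes N-cadherin, the classical cadherin of mesenchymal cells and of the junctions between cardiac muscle cells. It spans 27932879 to 28177130 of chromosome 18 on the minus strand (244 kb). It had 9 overexpression regions, the most of the 7 genes. Over no other gene it had 6, as many as EMILIN2. With regions of at least 400 bp only, it had 2 against 4 for EMILIN2. With regions within 1000 bp merged, it had 4 against 2. The 9 regions sat toward both ends of the gene, with 210.3 kb between them that held none. At the 3′ side 4 regions covered 2950 bp within 7.1 kb, and at the 5′ side 5 regions covered 1090 bp within 9.89 kb. The midpoints of the 4 lay 18.9 to 25.0 kb from the RefSeq 3′ end, at 89.8% to 92.2% of the gene. The widest, chr18:27950861-27952775 (1915 bp), crossed the 3′ end of 6 of 8 CDH2 transcripts there and lay inside the other 2, which end further on. The next 3 (205, 615 and 215 bp, from 27956056 to 27957955) lay inside all 8 of these transcripts. They also lay inside an unnamed gene on the plus strand, ENSG00000227279, at 27954519 to 27963687, and cannot be given to CDH2 alone.

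At the 5′ side of CDH2, the regions chr18:28168226-28168440 and chr18:28168641-28168845 lay about 3.6% and 3.4% into the gene. Another, chr18:28176431-28176635, lay at 0.24%. The last 2 lay beyond the RefSeq start, in or across the start of ENST00000676445, the transcript that begins furthest upstream: chr18:28177256-28177470 (215 bp) inside it and chr18:28177866-28178115 (250 bp) across its start. All 5 were between 205 and 250 bp wide, beside a median of 235 bp on the chromosome.

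The region at 28177256 is the only region of the 7 genes that meets a RefSeq promoter window of its own gene, out of 8 windows for 6 of the genes. It reaches to within 126 bp of the RefSeq start at 28177130. The sequence printed here shows which bases that region shares with the 250 bases upstream of the start, chr18:28177131-28177380 on GRCh38.p14, minus strand, read 5′ to 3′ from RefSeq, with the 125 shared bases in capitals.
CDH2 upstream window: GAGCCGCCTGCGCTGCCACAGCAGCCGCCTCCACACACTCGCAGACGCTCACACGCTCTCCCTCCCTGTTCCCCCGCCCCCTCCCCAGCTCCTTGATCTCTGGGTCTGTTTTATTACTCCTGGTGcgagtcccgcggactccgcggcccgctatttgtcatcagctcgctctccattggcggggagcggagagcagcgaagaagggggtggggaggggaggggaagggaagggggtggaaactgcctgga
The window had a GC content of 66.0%, against a median of 58.0% over 35116 RefSeq windows of the same length, of which 69.6% were lower. The shared bases (64.8%) and the remaining bases (67.2%) were close in GC content. Searched on both strands, GGGCGG was found once, on the reverse strand within the shared bases, and CCAAT once, on the reverse strand outside them. These motifs occur in 42.6% and 32.0% of all windows, and a match describes letters only.

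P4HA1 (ENSG00000122884) encodes the catalytic alpha-1 subunit of collagen prolyl 4-hydroxylase, the enzyme of the endoplasmic reticulum that hydroxylates collagen prolines. It spans 73007217 to 73096866 of chromosome 10 on the minus strand (89.7 kb). The control region, chr10:73007266-73008290, was 1025 bp or 5 steps of 205 bp wide. The overexpression region, chr10:73007061-73008495, was 1435 bp or 7 such steps. The control region lay wholly within the overexpression region, which was 1 step (205 bp) longer on each side, so the 2 had the same midpoint, 0.56 kb from the RefSeq 3′ end. The control region stopped 49 bp short of that end and lay inside all 5 transcripts; the overexpression region ran 156 bp past it and crossed the end of all 5. The widths had a ratio of 1.4, overexpression over control. Among the 16 genes of chromosome 10 in both lists the median ratio of covered length was 1.6 (range 1 to 4.75), and 2 had a lower ratio than P4HA1. With 1 list per condition, a difference of 2 steps has no replicate check.

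ANTXR2 (ENSG00000163297) encodes capillary morphogenesis protein 2, a membrane receptor for basement-membrane collagen and laminin that anthrax toxin also uses; its loss causes hyaline fibromatosis, with deposits of matrix in the skin. It spans 79901146 to 80073472 of chromosome 4 on the minus strand (172 kb). Its single control region, chr4:79904201-79907115, was 2915 bp wide, the widest of the 24. It crossed the 3′ end of 6 of 7 ANTXR2 transcripts and lay inside the longest, ENST00000403729, with its near edge 3055 bp before the end of that transcript. It lay over no other gene. The nearest overexpression region lay 380086 bp away.

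**Figure D2:**
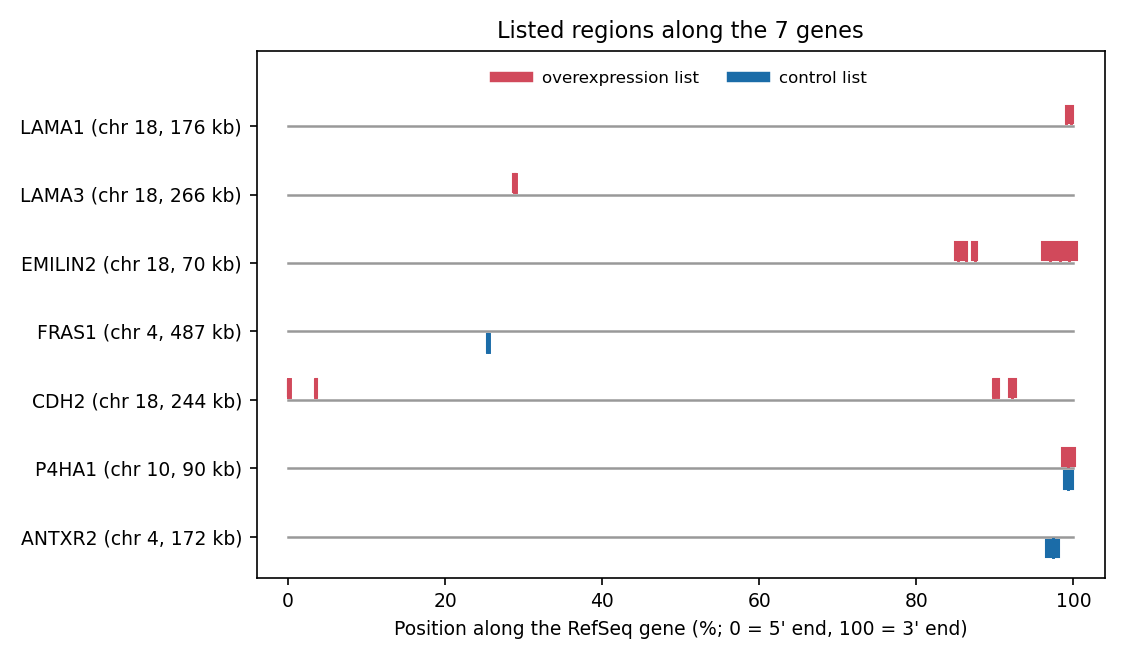
Midpoints and widths of the 24 regions along each RefSeq gene, from the 5′ end (0%) to the 3′ end (100%), for the overexpression list (red, above the line) and the control list (blue, below); marks have a minimum drawn width, and the 2 CDH2 regions beyond the RefSeq start are drawn at 0%. Regions of LAMA1, EMILIN2, P4HA1 and ANTXR2 lie in the last 15% of the gene, and those of LAMA3 and FRAS1 between 25% and 30%. Those of CDH2 lie at the 5′ end and at 89.8% to 92.2% of the gene.

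Over all 7 genes, 10 of the 24 regions had their midpoint in the last 10% of the gene, and 6 crossed the annotated 3′ end of at least 1 transcript. For the 19 regions on chromosome 18 the share in the last 10% was 36.8% (7 regions), beside 29.9% of all entries of region and gene on chromosome 18. The share that crossed a transcript end was 21.1% (4 regions) beside 17.7%. Their median width was 250 bp beside 235 bp for the 1339 regions of the chromosome, and 9 of 19 (47.4%) were 1 step wide beside 47.3%. In these measures the regions of LAMA1, LAMA3, EMILIN2 and CDH2 were near the values of the whole chromosome. The 3′ position of P4HA1 was also common on its chromosome, with 87.9% of the control entries and 45.7% of the overexpression entries of chromosome 10 in the last 10% of the gene. On chromosome 4, 41.5% of the control entries lay in the last 10%, where the ANTXR2 region lay and the FRAS1 regions did not.

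**Figure D3:**
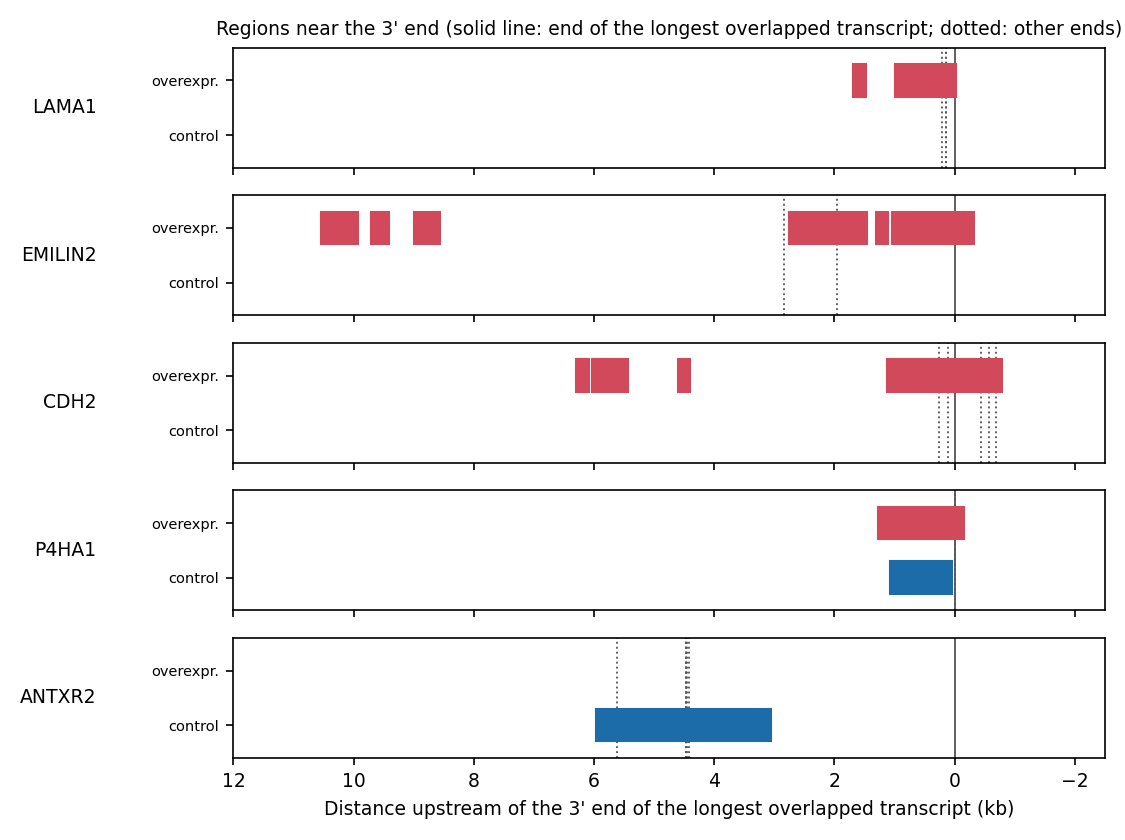
Regions near the 3′ end of 5 genes; the horizontal axis is the distance in kb upstream of the 3′ end of the longest overlapped transcript (solid line), other transcript ends are dotted, and colours mark the lists. The P4HA1 control region (1025 bp) lies within the overexpression region (1435 bp), and the ANTXR2 region spans the ends of 6 shorter transcripts; the 2 CDH2 transcripts that end further on fall outside the plot.

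Covered length, the summed width of a gene's regions, was set beside the other listed coding genes of the same chromosome and list. On chromosome 18, 162 coding genes had a median of 5 regions and 2982.5 bp. EMILIN2 (6 regions) and CDH2 (9 regions) were above this median, with 54 and 60 genes covered more. LAMA1 and LAMA3, with 2 regions each, were below it, with 135 and 153 genes covered more. Relative to gene length, with bases past the gene's ends counted in the width, the median was 4.41%. EMILIN2 (6.02%) was above it, and CDH2 (1.65%), LAMA1 (0.70%) and LAMA3 (0.23%) were below. Without the bases past the ends, CDH2 had 1.46% and LAMA1 0.69%. Of the 162 genes, 1 had a lower percentage than LAMA3. These are long genes: only 12 of the 162 were longer than LAMA3, 13 than CDH2 and 22 than LAMA1.

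On chromosome 4, the 332 coding genes of the control list had a median of 2 regions and 2330 bp, or 4.02% of the gene. ANTXR2, with 1 region, was above the median in bp and below it per length (1.69%). FRAS1 was below both (1290 bp and 0.26%), and 5 of the 332 genes were longer. On chromosome 10, P4HA1 lay below the median covered length of both lists, 1230 bp over 30 control genes and 2050 bp over 67 overexpression genes. In each list of chromosome 10 the median gene also had 1 region.

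**Figure D4:**
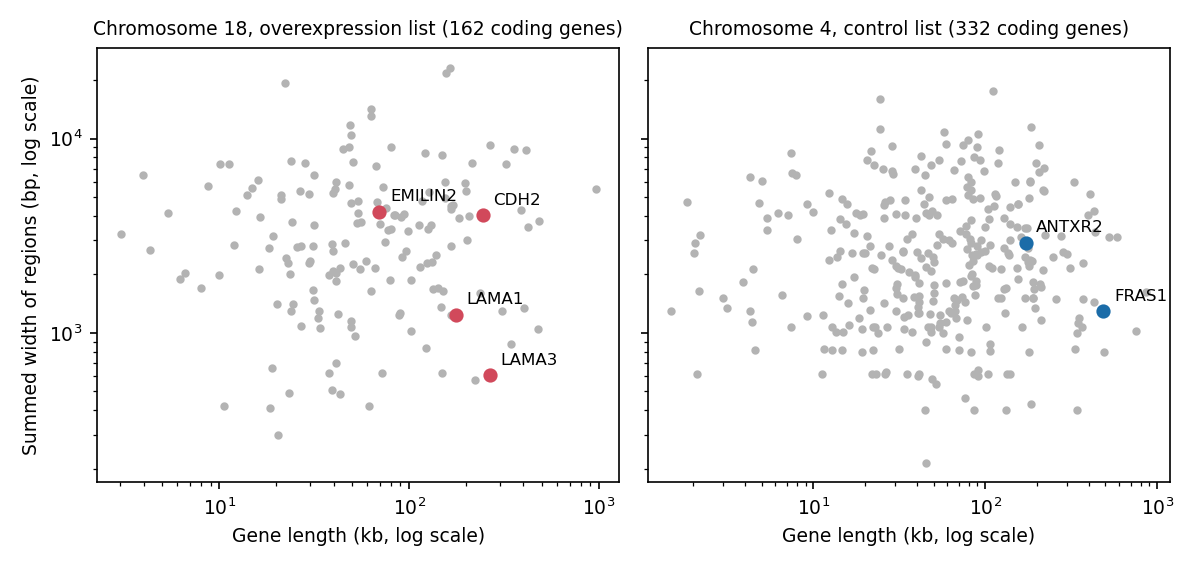
Summed width of regions (bp, log scale) against gene length (kb, log scale) for the 162 listed coding genes of chromosome 18 in the overexpression list (left) and the 332 of chromosome 4 in the control list (right); grey points are other genes and coloured points are members. LAMA1, LAMA3 and FRAS1 lie at the long, thinly covered side of the points, and EMILIN2 near the middle in length.

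Genes with the same number of regions and the nearest covered length on the same chromosome were found for each gene among 195 named genes of chromosome 18, 380 of chromosome 4 and 29 or 76 of chromosome 10. For CDH2 these were MOCOS (4055 bp), LMAN1 (3590 bp) and TWSG1 (4725 bp), each with 9 regions. For EMILIN2 they included DLGAP1-AS2 (4005 bp) and the desmosomal cadherin gene DSC3 (3675 bp), with 6 regions each. For LAMA1 they were TAF4B (1230 bp), IMPACT (1085 bp) and ELAC1 (1405 bp). For LAMA3 they were another cadherin gene, CDH20 (575 bp), TTC39C-AS1 (635 bp) and SEC11C (660 bp). BLOC1S4 and SERBP1P5 matched FRAS1 exactly (1290 bp), SERBP1P5 because it has the same regions, and AP1AR followed (1260 bp). MRFAP1 (2895 bp), CLDN22 and WWC2 (3200 bp each) were nearest to ANTXR2. Several genes tied with P4HA1 at 1025 bp in the control list (LRRC20, MYOF and NOLC1 come first by name) and at 1435 bp in the overexpression list (CDH23, CELF2 and CEP55).

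Among the 10 nearest coding neighbours, 5 on each side, 8 had an overexpression region around EMILIN2, 8 around LAMA3, 4 around LAMA1 and 3 around CDH2, beside 60.0% of the coding genes of chromosome 18. The neighbours of CDH2 with regions were PSMA8, TAF4B and DSC3, while DSC2, DSC1, DSG1 and DSG4, desmosomal cadherin genes next to DSC3, had none. Around FRAS1, 6 neighbours were listed in control cells and 5 under overexpression, beside 43.1% and 27.3% of the coding genes of chromosome 4. CCNI, CCNG2, CNOT6L and MRPL1 were in both. Why FRAS1 was absent from the overexpression list was not tested. Around ANTXR2, 4 were listed in control cells and 2 under overexpression, and FGF5 was in both. Around P4HA1, 2 were listed in control cells (FAM149B1 and DNAJC9) and 0 under overexpression, beside 4.09% and 9.13% of the coding genes of chromosome 10. These neighbours are named after their values were seen.

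Related genes were taken from 10 lists of matrix and adhesion genes, 116 genes in all, of which 51 lie on chromosomes 4, 10 and 18. Of the 116, 7 were listed in control cells and 12 under overexpression, LAMA1 and the other 6 included, beside 1.81% and 2.32% of all RefSeq coding genes. The 116 genes were partly picked for lying on these chromosomes. Beyond the members, 5 of 12 genes on chromosome 18 had an overexpression region, beside 60.0% of coding genes there, and 0 a control region, as for every coding gene of the chromosome. On chromosome 4, 4 of 16 had a control region, beside 43.1% of coding genes, and 1 of 16 an overexpression region, beside 27.3%. On chromosome 10, 1 of 16 had an overexpression region, beside 9.13%, and 0 a control region, beside 4.09%.

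Of the 12 laminin chains, LAMA1 and LAMA3 alone lie on these chromosomes. Both were chosen for having regions, so their listing is no result about laminins. Of the EMILIN and multimerin genes on these chromosomes, EMILIN2 had regions and MMRN1 and MMRN2 had none. In the Fraser complex, FREM3, also on chromosome 4, had none. The 11 classical and desmosomal cadherin genes on these chromosomes all lie on chromosome 18, where 60.0% of coding genes had an overexpression region. Of the 11, 4 had one. These were CDH2, chosen for its regions, CDH20 (2 regions, 575 bp), DSC3 (6 regions, 3675 bp) and DSG2 (1 region, 2265 bp). The DSG2 region also lay over DSG2-AS1. CDH7, CDH19, DSC1, DSC2, DSG1, DSG3 and DSG4 had none.

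Of the 8 protocadherin and FAT genes on these chromosomes, 4 had a region, and PCDH10, PCDH15, CDHR1 and FAT4 had none. The 8 lie on chromosomes 4 and 10, where 46.4% and 11.3% of coding genes had a region in either list. On chromosome 4, FAT1 (5 regions, 4435 bp), PCDH18 (2 regions, 1015 bp) and PCDH7 (1 region, 1440 bp) had control regions and no overexpression region. FRAS1 and ANTXR2, which were chosen for having regions, were also in the control list only. Of the 16 other related genes on chromosome 4, 4 had a control region, and 1 of these, SLIT2, also had an overexpression region. Of all coding genes of chromosome 4, 19.1% were in the control list only. CDH23 on chromosome 10 had 1 overexpression region (1435 bp) that also lay over VSIR. Of the collagen-folding genes, P4HA1 alone lies on these chromosomes. The other anthrax toxin receptor gene there, ANTXRL on chromosome 10, had none. Of the laminin and collagen receptors on these chromosomes, ITGA8 and ITGB1 had none, and neither had the catenin gene CTNNA3.

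Of 19 other matrix genes on these chromosomes, 3 had a region, where 46.4% of coding genes on chromosome 4, 11.3% on chromosome 10 and 60.0% on chromosome 18 had one in either list. The guidance ligand gene SLIT2 had 2 control regions and 1 overexpression region, each summing to 2280 bp. The scavenger receptor gene COLEC12 had 7 overexpression regions (3920 bp) and CCBE1 had 18 (9220 bp), and some regions of both also lay over a gene with no name in the table.

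The label of the cells could not be checked from the lists. None of the 14 fibroblast markers had a region, and 2 of them, PDGFRA and VIM, lie on chromosomes 4 and 10. Nor did any of 4 myofibroblast, 4 endothelial, 4 epithelial, 4 cardiomyocyte or 3 immune markers have a region. Of these, only ACTA2 (myofibroblast) and KDR (endothelial) lie on chromosomes 4, 10 and 18, where nearly all listed regions lie. Absence from a list says nothing here about expression, which was not analysed.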

How the data were processed

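Per the submitters' processing notes, reads were handled with bcl2fastq 2.19.0, Trimmomatic 0.36 and HISAT2 2.1.0 on GRCh38. The sources used here do not name the region caller, its threshold, its use of total RNA or how replicates were combined. The deposited tables hold positions, widths and distances in bp, per the file headers, with 1 line per region and Ensembl transcript. Transcripts not paired with a region are missing from them, so counts of a gene's transcripts leave these out. A region was counted once per gene it lay in or overlapped. Gene spans, types and promoters came from RefSeq GRCh38.p14: 726 of 733 gene names matched, 15 of them through an older symbol. Positions are region midpoints along the RefSeq gene. Overlaps of at least 1 bp were computed directly from positions. pandas 2.3.3 and numpy 2.4.6 were used. Counts and positions were tested on simulated data, where all 200 genes were recovered.

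The planned test per replicate needed counts, so no test was made. The members and gene lists were chosen with earlier results of these data known. The text names the 7 members, every listed gene of the gene lists, every gene under a member's region, and the 3 genes nearest to each in region count, with ties broken by covered length; neighbours and listed genes without a region were added after seeing values. A gene that this rule selects is not reported here. Alternatives were merging within 1000 bp, nearest genes, regions over 1 gene, regions of at least 400 bp, clipping, the widest region, other transcripts, other definitions of the 3′ end, overlap of 50%, and other backgrounds.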

Additional observations from a re-analysis of the deposited data

How the results depend on the processing

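Merging regions within 1000 bp left 12 of the 24 regions of the 7 genes, and keeping only regions of at least 400 bp also left 12. Counting nearest-gene regions gave 28, and regions over no other gene gave 19. The summed covered length of 16750 bp became 10755 bp with the widest region per gene, and 15771 bp when regions were clipped to the gene. The 10 regions at the 3′ end became 4 within 1000 bp of the RefSeq end, 15 in the last 20%, and 6 that crossed a transcript end, the last chosen after seeing the data. The median position was 88.6% of the gene, 92.1% of the longest transcript and 81.1% over all overlapped transcripts. The overlap in P4HA1 held at 50% of both regions. The share of coding genes with a region in either list was 3.13% over all chromosomes, 46.4% on chromosome 4, 11.3% on chromosome 10 and 60.0% on chromosome 18, and 56.6%, 11.1% and 62.3% for genes of at least 50 kb, a limit chosen after seeing the data. Of 56 values of single genes, 41 stayed within 1.5 times and 15 moved; LAMA3 had 0 regions of at least 400 bp and FRAS1 0 over no other gene. No paired analysis was possible because the lists hold no value per replicate, and for the same reason no replicate could be left out. Depth is unknown.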

Other observations

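A further 4 regions had a member as their nearest gene without touching it, and all 4 lay over no gene of the tables. Of these, 2 control regions lay upstream of FRAS1, at chr4:78038981-78039400 and chr4:78039841-78040055, 17923 and 17268 bp before its first transcript start. An overexpression region at chr18:2842086-2842530 lay 4476 bp before the start of the longest EMILIN2 transcript. An overexpression region at chr18:28178276-28178480 lay 330 bp before the start of the CDH2 transcript that begins furthest upstream. With that region, 4 overexpression regions stood within the stretch from 28176431 to 28178480 at the start of CDH2. SERBP1P5 lies within the span of FRAS1, so the regions upstream of FRAS1 could not lie over this pseudogene.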
